A study of Homo sapiens with 12 samples.

Results

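The genes described here are 37 mitotic kinases, cyclins, kinesins, spindle and cytokinesis genes and the transcription factors FOXM1 and MYBL2, out of 19775 genes measured. They were taken as a named list, and every probe set whose annotation names a single member was used, 72 of the 54675 probe sets on the array. All 37 members were found, 15 with 1 probe set and 22 with several, and the probe sets of a gene were averaged.

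Human cancer cell lines received short nucleic acids by reverse transfection with Lipofectamine RNAiMAX: PC-3 (prostate), HBC4 (breast) and MKN74 (gastric). The 4 treatments were the reagent alone, the RNA (uuaccc)4, the RNA (uuaggg)4 and the DNA AS1411. The RNA (uuaggg)4 carries the telomeric repeat and AS1411 is a guanine-rich aptamer. Both fold into G-quadruplexes (G4), stacks of guanines held in squares, whereas (uuaccc)4 has no guanines and forms none. A well given an oligonucleotide received about 100 pmol of it, and a well with the reagent alone received none. All groups grew as 3D cultures in low-adhesion plates, and RNA was taken at 72 h. Each line and treatment is represented by 1 Affymetrix array, 12 in all, so a treatment has 3 arrays from 3 lines and no array is repeated. No genotype was altered in any group, and AS1411 has no DNA control of its own.

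As cells approach mitosis a wave of transcription supplies the proteins that condense chromosomes, build the spindle and split the cell. CDK1 with the B and A cyclins opens mitosis, Aurora, Polo and NEK kinases order its steps, kinesins move and shorten microtubules, and the anaphase-promoting complex with CDC20 and UBE2C ends it. The wave is driven by the B-Myb protein (gene MYBL2) bound to the MuvB complex and then by FOXM1. MuvB contacts a promoter element named CHR, whose common form is TTTGAA, and the factor NF-Y binds CCAAT boxes nearby. These genes are widely read as a measure of how many cells in a tumour line are dividing. An array of bulk RNA cannot tell fewer dividing cells from less RNA in each.

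Promoters of the members are shown as background to the results below. RefSeq promoters of GRCh38.p14, from 250 bases before to 50 after the start, were matched by symbol for 32 of the 37 members. TTTGAA on either strand was in 24 of these 32 (75%), against 15.4% of all 27305 promoters. CCAAT on either strand was in 26 (81.2%), against 35.7% of all. Both were in 21 (65.6%), against 6.08% of all. A pattern of 4 runs of at least 3 guanines, separated by 1 to 7 bases, was also sought on either strand. It was in 6 members (18.8%), against 24.1% of all. Of the 15843 promoters of protein-coding genes, 12.1% held TTTGAA, 36.4% CCAAT, 5.02% both and 30.4% the guanine pattern. Below are bases -150 to -1 before the start of 6 members that the results turn on, 5′ to 3′ on the gene's strand, with TTTGAA and CCAAT (or their reverse complements) in capitals. MYBL2 is included because neither motif occurs in it. PLK1 and CCNB2 are included because they hold the motifs that CDC20 holds and did not pass the main test. For CCNB2 that test used the mean of 3 probe sets, and its probe set of largest line SD did pass (0.51, adjusted p = 0.00861 by limma). PLK1 and CCNB2 were nonetheless both positive in each line, and whether the motifs relate to the size of a difference was not tested.
CDC20, chr1:43358831-43358980, + strand: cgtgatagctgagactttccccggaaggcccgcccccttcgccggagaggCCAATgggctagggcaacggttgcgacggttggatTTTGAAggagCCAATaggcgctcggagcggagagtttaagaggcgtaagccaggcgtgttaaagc
PRC1, chr15:90994536-90994685, - strand: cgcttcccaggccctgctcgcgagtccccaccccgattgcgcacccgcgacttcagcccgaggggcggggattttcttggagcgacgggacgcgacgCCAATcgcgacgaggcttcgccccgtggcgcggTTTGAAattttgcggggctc
HMMR, chr5:163460482-163460631, + strand: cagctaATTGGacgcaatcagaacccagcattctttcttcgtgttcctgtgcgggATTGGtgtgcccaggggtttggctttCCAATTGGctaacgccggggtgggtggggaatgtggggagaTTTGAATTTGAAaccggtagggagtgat
CCNB2, chr15:59104996-59105145, + strand: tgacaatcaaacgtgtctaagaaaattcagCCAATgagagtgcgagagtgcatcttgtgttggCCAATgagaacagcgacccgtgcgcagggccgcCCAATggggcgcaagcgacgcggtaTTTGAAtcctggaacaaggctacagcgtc
PLK1, chr16:23678739-23678888, + strand: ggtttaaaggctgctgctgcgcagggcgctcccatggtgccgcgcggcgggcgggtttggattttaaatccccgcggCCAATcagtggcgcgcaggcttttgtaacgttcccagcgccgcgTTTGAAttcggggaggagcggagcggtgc
MYBL2, chr20:43666964-43667113, + strand: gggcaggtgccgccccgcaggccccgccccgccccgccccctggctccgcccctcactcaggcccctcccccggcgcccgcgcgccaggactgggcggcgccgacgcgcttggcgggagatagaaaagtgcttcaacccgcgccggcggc
In these stretches CDC20 held 1 TTTGAA and 2 CCAAT, PRC1 1 and 1, HMMR 2 and 4, CCNB2 1 and 3, and PLK1 1 and 1. In HMMR both TTTGAA are adjacent, and the run CCAATTGG is a CCAAT on each strand, so these matches overlap. A match is a run of letters, not a measured binding site.

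The deposited values are log2 expression values centred so that each probe set has a median of 0 over the 12 arrays. A value is therefore a distance from that median and not a level, and values of different genes cannot be ranked. Arrays separated by line first, with a lowest correlation of 0.875 within a line and a highest of -0.17 between lines, which the centring lowers. Markers of the labelled tissues were compared between lines as differences only, and they matched the labels in part. Of 4 measured prostate markers HOXB13 stood at 4.61 ± 0.10 (SD, n = 4 arrays) and TMPRSS2 at 0.62 ± 0.06 in PC-3, above the other lines, while KLK3 (-0.12) and KLK2 (-0.02) did not stand higher there. Of 5 breast markers KRT15 (3.95 ± 0.06), SCGB2A2 (1.08 ± 0.68) and ESR1 (0.35 ± 0.08) were highest in HBC4, GATA3 stood at 0.32 in HBC4 against 0.02 in MKN74, and PGR at 0.04 against 0.15. The gastric markers did not single out MKN74: TFF1 and TFF2 stood at 8.15 and 8.26 in PC-3 against -0.15 and -0.60 in MKN74, and the line means of CDH17, CLDN18 and GKN1 lay between -0.14 and 0.14. TFF1 and TFF2 thus go against what the labels PC-3 and MKN74 would give for a gastric marker. The labels were kept, no other grouping was made, and each line name below means the arrays so labelled. The endothelial marker PECAM1 stood at 2.55 in PC-3 against -0.07 (HBC4) and -0.65 (MKN74), and its G4 difference was -0.10 (adjusted p = 0.591). CDH5, the other endothelial marker measured, went the other way, at -0.25 in PC-3 against 0.24 (HBC4) and 0.02 (MKN74). Line means of the leukocyte markers PTPRC and CD3E lay between -0.07 and 0.06. Those of the fibroblast markers COL1A2 and DCN lay between -0.06 and 0.04, and COL1A1 stood at -0.97 in HBC4 against 0.12 (PC-3) and 0.00 (MKN74). The labels do not say that the arrays came from separate cultures beyond line and treatment, so p-values measure the spread that line and treatment leave unexplained.

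The main question was what the G4 oligonucleotides changed against the reagent alone and (uuaccc)4. All 37 members had a positive log2 difference, and 18 rose past the threshold of limma (adjusted p under 0.05 over all genes), from 0.27 for the phosphatase CDC25C to 0.55 for CDC20. None fell. Over all genes 0.961% rose and 1.65% fell at this threshold. The members' median difference was 0.35, with quartiles of 0.22 and 0.44, while all genes had a median of 0.02 and 56.3% of them were positive. The changes were small, and the largest, that of CDC20, was 1.46-fold. The difference was positive in all 3 lines for 32 of the 37 members, and for 21.2% of all genes. At an unadjusted p under 0.05, 33 members were higher and 0 lower, against 9.89% and 9.04% of all genes. The list was chosen with a rise of cell division genes in these data known, so its direction is not independent evidence.

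**Figure D1:**
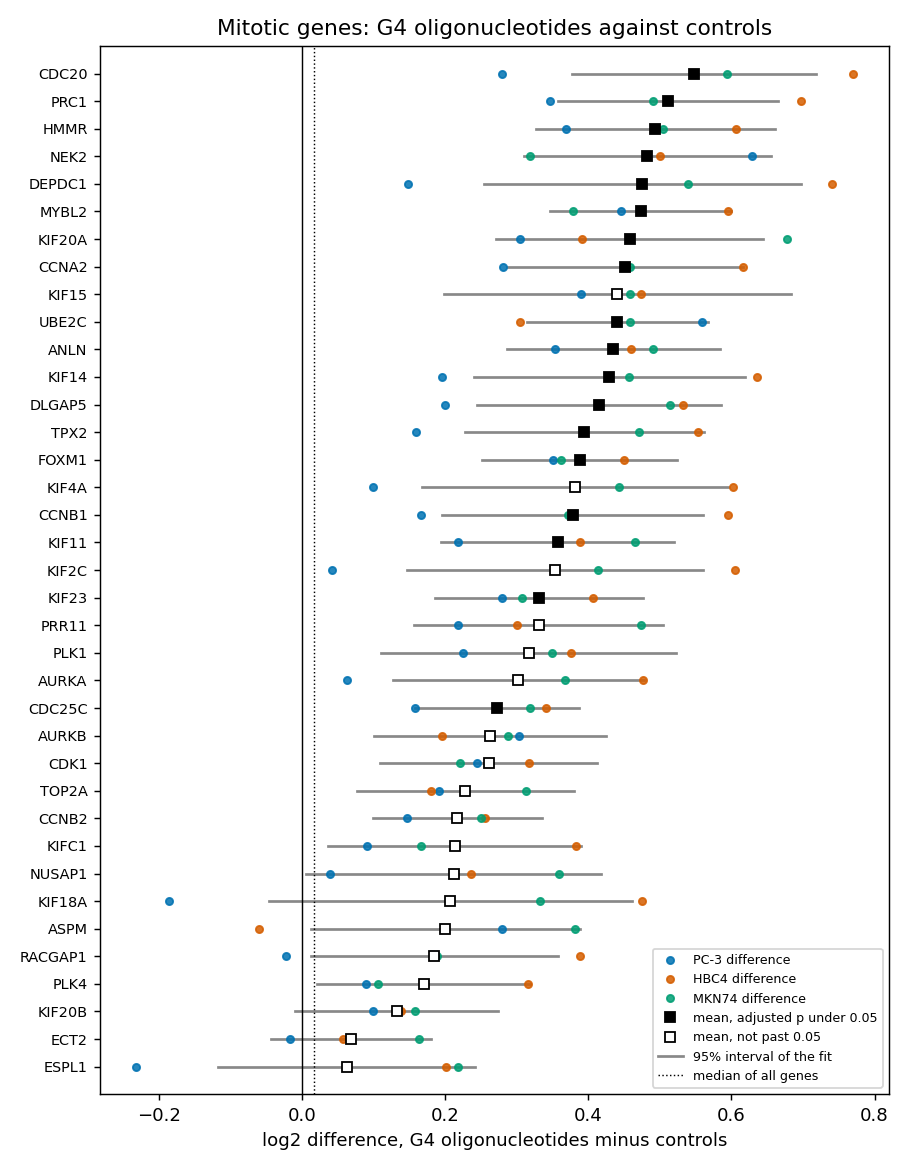
Log2 difference of G4 oligonucleotides minus controls (x axis) for each of the 37 members (y axis, ordered by size). Squares are means over 3 lines, filled for the 18 members past an adjusted p of 0.05, grey bars are 95% intervals of the fit, coloured points are the 3 line differences and the dotted line is the median of all genes at 0.02; every square lies right of 0, from 0.06 for ESPL1 to 0.55 for CDC20.

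The transcription factors of the mitotic wave both rose. MYBL2, which encodes B-Myb, had values of -1.22, -1.37, -0.81 and -0.88 in PC-3 with the reagent alone, (uuaccc)4, (uuaggg)4 and AS1411, in that order. In HBC4 its values were 0.16, 0.17, 0.68 and 0.84, and in MKN74 -0.13, -0.19, 0.13 and 0.29. Within each line both G4 arrays lay above both control arrays, and the controls differed little from each other. The log2 difference was 0.47 ± 0.11 (SD, n = 3 lines, 1.39-fold, adjusted p = 0.0025 by limma), the smallest p among the members. FOXM1 had values of -1.52, -1.57, -1.12 and -1.27 in PC-3, 0.68, 0.82, 1.11 and 1.28 in HBC4, and -0.29, -0.08, 0.28 and 0.08 in MKN74, in the same order. Control and G4 arrays did not overlap within any line, and the difference was 0.39 ± 0.05 (1.31-fold, adjusted p = 0.0109).

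Of the 10 members in the group of kinases, cyclins and the phosphatase CDC25C, 4 rose: NEK2, CCNA2, CCNB1 and CDC25C. NEK2, a kinase that separates centrosomes, had values of -2.90, -3.02, -2.19 and -2.48 in PC-3, -0.02, 0.17, 0.57 and 0.59 in HBC4, and -0.29, 0.05, 0.19 and 0.21 in MKN74. The gap between G4 and control arrays was widest in PC-3, unlike that of most members, and the difference was 0.48 ± 0.16 (adjusted p = 0.0112). Cyclin A2 (CCNA2), which partners CDK2 and CDK1, read -2.47, -2.46, -2.11 and -2.26 in PC-3, -0.44, -0.15, 0.23 and 0.41 in HBC4, and 0.17, 0.52, 0.77 and 0.84 in MKN74. Its difference was 0.45 ± 0.17 (adjusted p = 0.0117), and in HBC4 and MKN74 the (uuaccc)4 array lay between the reagent and the G4 arrays. Cyclin B1 (CCNB1) had 0.38 ± 0.21 (adjusted p = 0.0414) and CDC25C, which activates CDK1, 0.27 ± 0.10 (adjusted p = 0.0238). CDK1 itself had 0.26 ± 0.05 without passing (adjusted p = 0.0761), as did the centriole kinase PLK4 (0.17 ± 0.13, adjusted p = 0.204) and PLK1 (0.32 ± 0.08, adjusted p = 0.104). Both Aurora kinases were positive in every line without passing, AURKA at 0.30 ± 0.21 (adjusted p = 0.0766) and AURKB at 0.26 ± 0.06 (adjusted p = 0.0903).

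Among the 3 genes of the step to anaphase, CDC20 and UBE2C rose and separase did not pass. CDC20, which switches on the anaphase-promoting complex, had values of -1.89, -1.88, -1.64 and -1.57 in PC-3, 0.10, 0.26, 0.92 and 0.99 in HBC4, and -0.15, -0.10, 0.41 and 0.52 in MKN74. The order reagent, (uuaccc)4, (uuaggg)4, AS1411 held in all 3 lines, and the difference of 0.55 ± 0.25 (adjusted p = 0.00603) was the largest among the members. UBE2C, the complex's ubiquitin-conjugating enzyme, had values of -1.39, -1.44, -0.80 and -0.91 in PC-3, -0.01, 0.10, 0.36 and 0.34 in HBC4, and -0.11, 0.01, 0.39 and 0.42 in MKN74. Its difference was 0.44 ± 0.13 (adjusted p = 0.00392), and it was the single member that still passed when HBC4 was left out. Separase (ESPL1), which cuts cohesin, had the smallest difference of the list, 0.06 ± 0.25 (adjusted p = 0.724).

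Kinesins are motors, and the 10 in the list act in spindle building, chromosome movement or cytokinesis. Of these, 4 rose: KIF20A (0.46 ± 0.20, adjusted p = 0.0205), KIF14 (0.43 ± 0.22, adjusted p = 0.0299), KIF11 (0.36 ± 0.13, adjusted p = 0.0334) and KIF23 (0.33 ± 0.07, adjusted p = 0.0295). KIF20A, which carries the passenger complex to the midzone, had values of -0.90, -0.94, -0.58 and -0.65 in PC-3, 0.19, 0.44, 0.59 and 0.82 in HBC4, and -0.63, -0.17, 0.17 and 0.39 in MKN74. Its widest range was in MKN74, and G4 and control arrays did not overlap in any line. KIF11 pushes spindle poles apart, while KIF14 and KIF23 act in cytokinesis. KIF15 had a difference as large (0.44 ± 0.04) with a wider error of the fit (SE 0.11), and did not pass (adjusted p = 0.0634). KIF2C, KIF4A, KIFC1, KIF18A and KIF20B ranged from 0.13 to 0.38 and did not pass.

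Of the 6 spindle genes, 4 rose: PRC1, HMMR, DLGAP5 and TPX2. PRC1, which bundles microtubules of the midzone, had values of -1.44, -1.54, -1.16 and -1.12 in PC-3, -0.50, -0.26, 0.26 and 0.37 in HBC4, and 1.32, 1.44, 1.90 and 1.85 in MKN74. The difference was 0.51 ± 0.18 (adjusted p = 0.00496), with the G4 arrays above the controls in each line. HMMR, a spindle pole protein, had values of -1.07, -1.24, -0.76 and -0.82 in PC-3, 0.02, 0.36, 0.82 and 0.77 in HBC4, and -0.36, -0.02, 0.27 and 0.36 in MKN74. Its difference was 0.49 ± 0.12 (adjusted p = 0.00929). DLGAP5, a microtubule stabiliser, had 0.42 ± 0.19 (adjusted p = 0.0213) and TPX2, the activator of Aurora A, 0.39 ± 0.21 (adjusted p = 0.0245). NUSAP1 (0.21 ± 0.16, adjusted p = 0.25) and ASPM (0.20 ± 0.23, adjusted p = 0.236) did not pass.

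In the cytokinesis group anillin rose and the regulators of RhoA did not pass. ANLN, the scaffold of the contractile ring, had values of -2.54, -2.75, -2.26 and -2.32 in PC-3, -0.18, 0.02, 0.38 and 0.38 in HBC4, and -0.02, 0.22, 0.50 and 0.68 in MKN74. Its difference was 0.43 ± 0.07 (adjusted p = 0.00934). RACGAP1 had 0.19 ± 0.21 (adjusted p = 0.232) and the exchange factor ECT2 0.07 ± 0.09 (adjusted p = 0.502), which with ESPL1, KIF18A (0.21 ± 0.35, adjusted p = 0.36) and KIF20B (0.13 ± 0.03, adjusted p = 0.295) were the members of largest p. Topoisomerase II alpha (TOP2A), which untangles chromosomes, had 0.23 ± 0.07 (adjusted p = 0.109). DEPDC1 rose (0.48 ± 0.30, adjusted p = 0.0362) and PRR11 did not pass (0.33 ± 0.13, adjusted p = 0.0544).

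**Figure D2:**
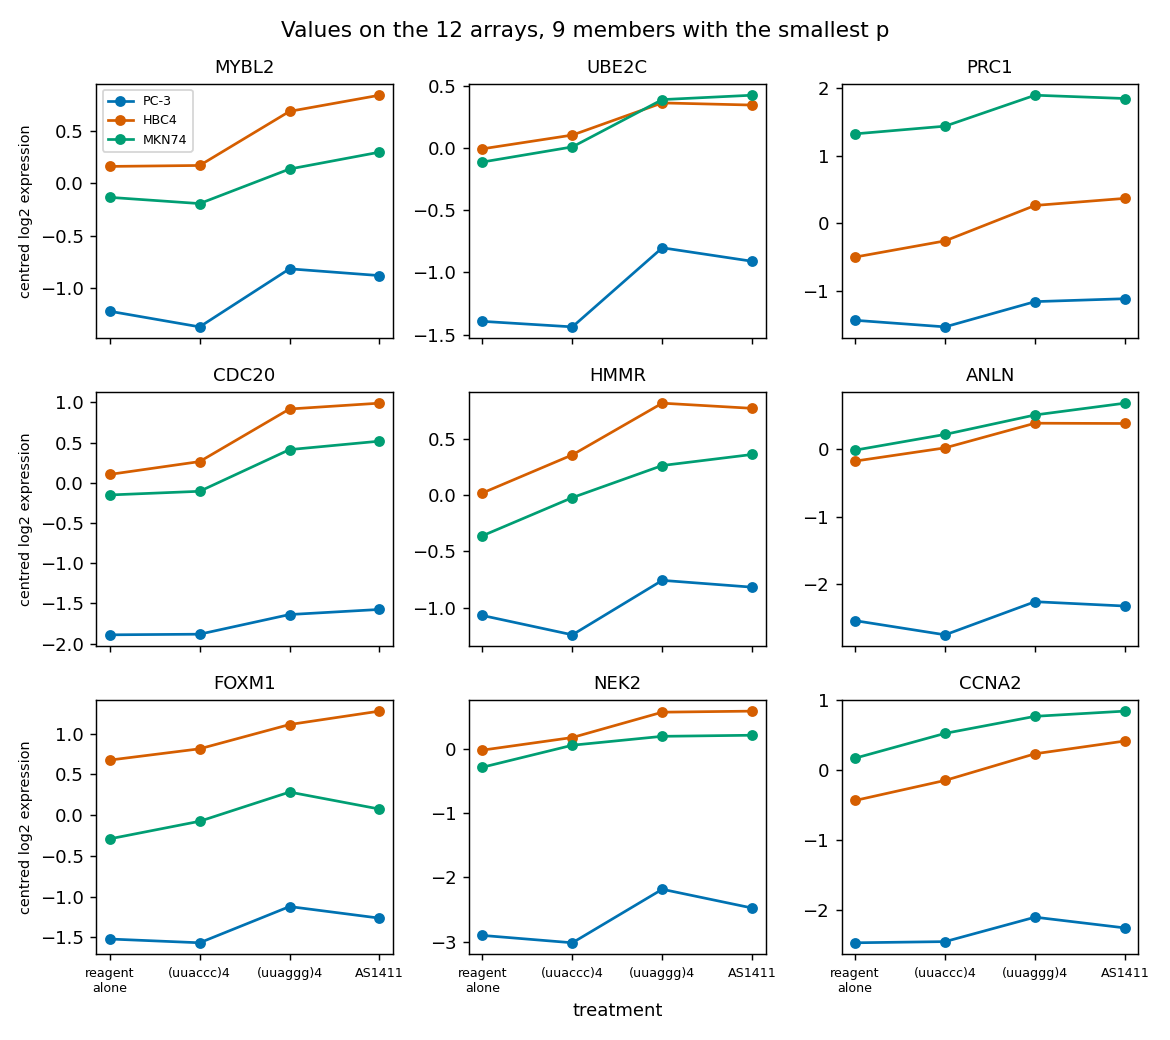
Centred log2 expression (y axis) on each of the 12 arrays, by treatment (x axis) and cell line (colour), for the 9 members with the smallest p. Each point is 1 array and lines join the arrays of a cell line; in every panel both G4 arrays of a line lie above both of its control arrays.

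Both G4 arrays lay above both control arrays for 25 members in PC-3, for 34 in HBC4 and for 33 in MKN74 (background 26.2%, 27.5% and 22.7%), and below them for 2, 0 and 0 (background 22.3%, 20.1% and 21.9%). Arrays of both classes did not overlap in any line for 22 of the 37 members, with the G4 arrays above, against 3.51% of all genes. The count of 18 was 13 without PC-3, 1 without HBC4 and 2 without MKN74. Over all genes the higher calls went from 190 to 41, 4 and 17 in the same fits, and the members' median difference was 0.41, 0.30 and 0.32, with at least 36 positive. Leaving out 1 array moved it most to 22, without the PC-3 reagent array, and to 9, without the HBC4 reagent, (uuaccc)4 or AS1411 array or the MKN74 (uuaggg)4 array. It was 10 without the PC-3 (uuaccc)4, HBC4 (uuaggg)4 or MKN74 reagent array, and 11 without the MKN74 AS1411 array. Over all genes the higher calls in the 12 fits without 1 array ran from 63 to 163, against 190 with all arrays. In each of these 12 fits 9 members passed: MYBL2, UBE2C, PRC1, CDC20, HMMR, ANLN, FOXM1, NEK2 and CCNA2. Without the cell line as a block the member count was 0, and over all genes 0 were called higher and 1 lower. The members' median difference was then still 0.35, with all 37 positive.

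Probe sets of a gene did not always move alike. Of the 72 probe sets 70 had a positive difference and 2 did not, and 7 genes had probe sets more than 0.3 apart. PRR11 was the widest case, with probe sets at 0.86, 0.13 and -0.00. As a mean over them, PRR11 read -0.61, -0.65, -0.39 and -0.43 in PC-3, 0.07, 0.05, 0.35 and 0.37 in HBC4, and -0.08, 0.32, 0.42 and 0.77 in MKN74. For cyclin B2 (CCNB2) the probe sets gave 0.51, 0.10 and 0.04, and the gene's mean of 0.22 ± 0.06 did not pass (adjusted p = 0.0617). The CCNB2 probe set at 0.51 had an SD of 1.34 over the 12 arrays, against 0.30 and 0.17 for the others. AURKB had probe sets at 0.48 and 0.04, with SDs of 1.00 and 0.27. NUSAP1 had 0.37 and 0.06, ASPM 0.44, 0.09 and 0.07, DEPDC1 from 0.26 to 0.62, and KIF20B 0.30, 0.17 and -0.07. With the probe set of largest SD over the line means in place of the mean, AURKB (0.48, adjusted p = 0.0035), CCNB2 (0.51, adjusted p = 0.00861) and PRR11 (0.86, adjusted p = 0.000184) passed, as did TOP2A and NUSAP1. In the same fit CCNB1 (0.29, adjusted p = 0.116), KIF23 (0.38, adjusted p = 0.0523) and KIF14 (0.43, adjusted p = 0.0579) no longer passed, so that 5 were gained, 3 lost and 20 called. Whether the probe sets that stayed near 0 measure the same transcripts was not tested.

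**Figure D3:**
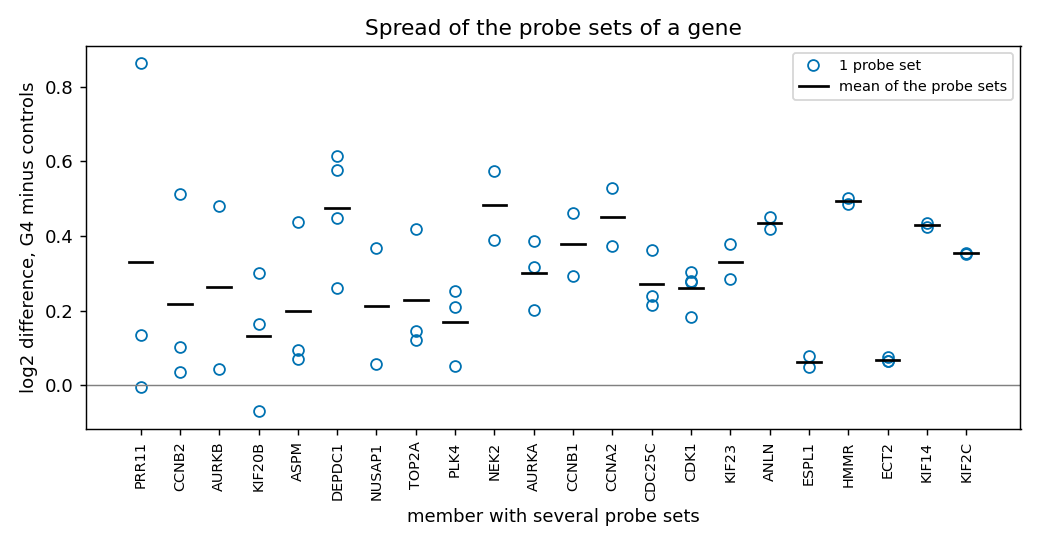
Log2 difference of G4 oligonucleotides minus controls (y axis) for each probe set (circles) of the 22 members with several (x axis, ordered by the gap between probe sets), with bars at their mean. PRR11 spans from -0.00 to 0.86, and the probe sets of KIF2C, KIF14 and HMMR nearly coincide.

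The main comparison is the mean of a pair of narrower ones that share no arrays with each other. The first sets (uuaggg)4 against (uuaccc)4, RNAs of equal length that differ in guanine content. All 37 members were positive, against 55.7% of all genes, with a median of 0.26 against 0.02 over all genes. None passed (adjusted p under 0.05 by limma; background 0% higher and 0.202% lower). At an unadjusted p under 0.05, 21 members were higher and 0 lower, against 5.72% and 4.8% of all genes. MYBL2 had the smallest p (0.46 ± 0.12, adjusted p = 0.0586), followed by UBE2C (0.42 ± 0.19, adjusted p = 0.0897), PRC1 (0.45 ± 0.08, adjusted p = 0.148) and CDC20 (0.47 ± 0.21, adjusted p = 0.183). The difference was positive in each line for 30 members, against 19.3% of all genes. PRR11 was past the threshold (adjusted p = 0.0158) when its probe set of largest line SD stood for the gene.

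In the comparison of AS1411 with the reagent alone, 7 members rose, against 0.106% of all genes, and none fell, against 0.415%. These were MYBL2 (0.48 ± 0.17, adjusted p = 0.032), PRC1 (0.57 ± 0.28, adjusted p = 0.0369), CDC20 (0.62 ± 0.29, adjusted p = 0.0377), KIF23 (0.53 ± 0.12, adjusted p = 0.0399), UBE2C (0.46 ± 0.10, adjusted p = 0.0409), CCNA2 (0.58 ± 0.33, adjusted p = 0.0456) and HMMR (0.58 ± 0.28, adjusted p = 0.0481). All 37 were positive, against 53.7% of all genes, with a median of 0.44 against 0.01 over all genes. At an unadjusted p under 0.05, 30 were higher and 0 lower, against 6.82% and 6.79% of all genes. KIF20A had the largest difference (0.63 ± 0.38, 1.55-fold) without passing (adjusted p = 0.0543). The count of 7 was 4 without PC-3 and 0 without HBC4 or MKN74. It was 14 without the PC-3 reagent array, 4 without the PC-3 (uuaggg)4 array, and 0, 1 or 2 without any other array. Over all genes the higher calls were 21 with all arrays, 9 without PC-3, 0 without HBC4 and 3 without MKN74. They were 36 without the PC-3 reagent array, 10 without the PC-3 (uuaggg)4 array, and 0 to 9 without any other array. With only the 6 arrays compared the member count was 0. With the probe set of largest line SD it was again 7, with 5 genes exchanged: AURKB, NEK2, CCNB2, TOP2A and PRR11 passed in place of CCNA2, UBE2C, KIF23, HMMR and MYBL2, whose adjusted p then ran from 0.0524 to 0.0786.

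The step from the reagent alone to (uuaccc)4, an RNA that forms no G4, was smaller and differed in direction between lines. Over the 3 lines 36 members were positive, against 47.1% of all genes, with a median of 0.11 against -0.01 over all genes. None passed (background 0% in both directions by limma). At an unadjusted p under 0.05 1 member, PLK4, was higher and 0 were lower, against 1.23% and 1.76% of all genes. PLK4 had values of -1.43 with the reagent and -1.33 with (uuaccc)4 in PC-3, -0.27 and -0.09 in HBC4, and 0.56 and 1.02 in MKN74. Its difference was 0.24 ± 0.19 (adjusted p = 0.9999 by limma), and in MKN74 the (uuaccc)4 array was the highest of the 4. CCNA2 (0.22 ± 0.18), KIF14 (0.24 ± 0.21) and KIF20A (0.22 ± 0.25) followed, each with an interval that holds 0. Intervals of 36 members held 0, with bounds from -0.25 to 0.63 over all 37, so rises as large as those above were not excluded for every gene.

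Lines differed in this step. In PC-3 30 of the 37 members were lower with (uuaccc)4 than with the reagent, with a median of -0.07. In HBC4 33 were higher, with a median of 0.20, and in MKN74 35, with a median of 0.24. The medians of all genes were -0.01, 0.00 and -0.01, and 46.5%, 50.1% and 47% of all genes were higher with (uuaccc)4. Of the members, 27 were lower in PC-3 and higher in both other lines, and the share of all genes with this pattern was not counted. Each line has a single array of either treatment, so this difference between lines has no replicate and was not tested. The reagent array was the lowest of the 4 for 33 members in HBC4, 35 in MKN74 and 6 in PC-3. In PC-3 the (uuaccc)4 array was lowest for 28. No share over all genes was counted for the lowest array. The step was positive in each of 3 lines for 4 of the 37 members, a share near the 10.2% of all genes. Both the reagent and the (uuaccc)4 arrays are controls of the main comparison, so its size within HBC4 and MKN74 depends on which control is used. Against the reagent array the members' medians were 0.22 with (uuaggg)4 and 0.14 with AS1411 in PC-3, 0.49 and 0.61 in HBC4, and 0.50 in MKN74 with either.

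**Figure D4:**
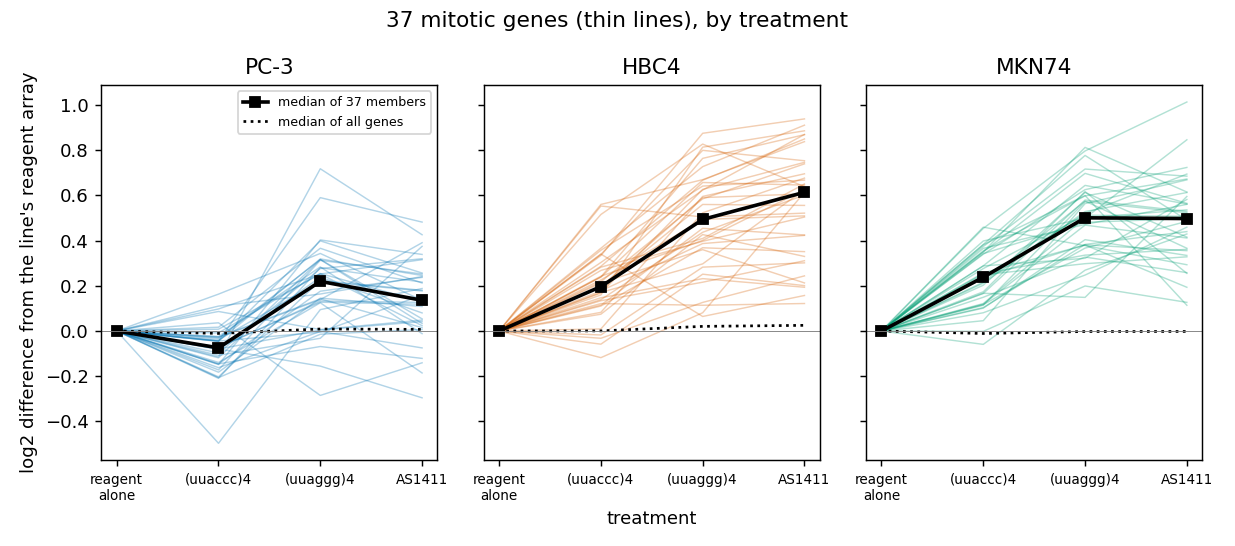
Log2 difference from the reagent array of the same line (y axis) by treatment (x axis), with a thin line for each of the 37 members, squares for their median and a dotted line for the median of all genes. With (uuaccc)4 the median is -0.07 in PC-3 against 0.20 (HBC4) and 0.24 (MKN74), and with either G4 oligonucleotide it is above 0 in every line while all genes stay near 0.

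Both G4 oligonucleotides were then set against each other. The members' median difference, AS1411 minus (uuaggg)4, was -0.00 and 18 of 37 were positive, against 49.6% of all genes. None passed by limma (background 0% in both directions), and at an unadjusted p under 0.05 1 member was higher and 0 lower, against 2.29% and 2.12% of all genes. It was KIF23, at 0.35 ± 0.16 (adjusted p = 0.9999 by limma, 95% interval 0.14 to 0.55). The values of KIF23 with (uuaggg)4 and AS1411 were -1.98 and -1.72 in PC-3, 0.10 and 0.63 in HBC4, and 0.47 and 0.73 in MKN74. KIFC1, a minus-end motor, had -0.21 ± 0.24, CDC25C -0.12 ± 0.07 and AURKB 0.17 ± 0.25, with intervals that hold 0, as did those of all members but KIF23. The intervals ran from -0.46 for KIFC1 to 0.55, so differences of the size of the G4 effect itself were not excluded for every gene.

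The G4 difference was smallest in the arrays labelled PC-3 for 30 of the 37 members and largest in HBC4 for 24. The shares of all genes with these orders were not counted. The fits per line, and the test between lines below, took both G4 arrays of a line as replicates though their treatments differ. Both control arrays were taken in the same way, so no treatment is repeated within a line. In these fits 3 members rose within PC-3 (MYBL2, UBE2C and NEK2, background 0.607%), 13 within HBC4 (background 1.53%) and 5 within MKN74 (background 0.501%). None fell in any line (background 1.26%, 1.83% and 1.27%). Member medians were 0.20, 0.41 and 0.37 in PC-3, HBC4 and MKN74, against 0.02, 0.02 and 0.01 over all genes. The test of a difference between lines called no member, against 1.29% of all genes, with 7 at an unadjusted p under 0.05, against 14.4% of all genes. CDC20 had the smallest p, with line differences of 0.28 (PC-3), 0.77 (HBC4) and 0.59 (MKN74) (adjusted p = 0.138 by limma). ESPL1 (-0.23, 0.20 and 0.22, adjusted p = 0.149), KIF2C (0.04, 0.60 and 0.41, adjusted p = 0.172) and TPX2 (0.16, 0.55 and 0.47, adjusted p = 0.313) followed. The order of lines was therefore not separable from the spread for any single member.

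The 3 lines also differed in the members themselves. The arrays labelled PC-3 stood lower than those of HBC4 for 34 members past the threshold and higher for 1 (background 29% and 27.3%), and lower than MKN74 for 36 and higher for 0 (background 33.9% and 27%). The median difference was -1.28 from HBC4 and -1.36 from MKN74, against -0.05 and -0.07 over all genes. NEK2 was the farthest from HBC4, at -2.97, and PRC1 the farthest from MKN74, at -2.94. ESPL1 was the exception, 1.20 higher in PC-3 than in HBC4. Between HBC4 and MKN74, 9 members were higher and 17 lower in HBC4 (background 23.6% and 28.2%), with FOXM1 0.97 higher and PRC1 1.66 lower. An F test over lines called all 37 members, against 70.6% of all genes. The line with the lowest values of these genes was also the line with the smallest G4 difference for most of them, a relation over 3 lines that was not tested.

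**Figure D5:**
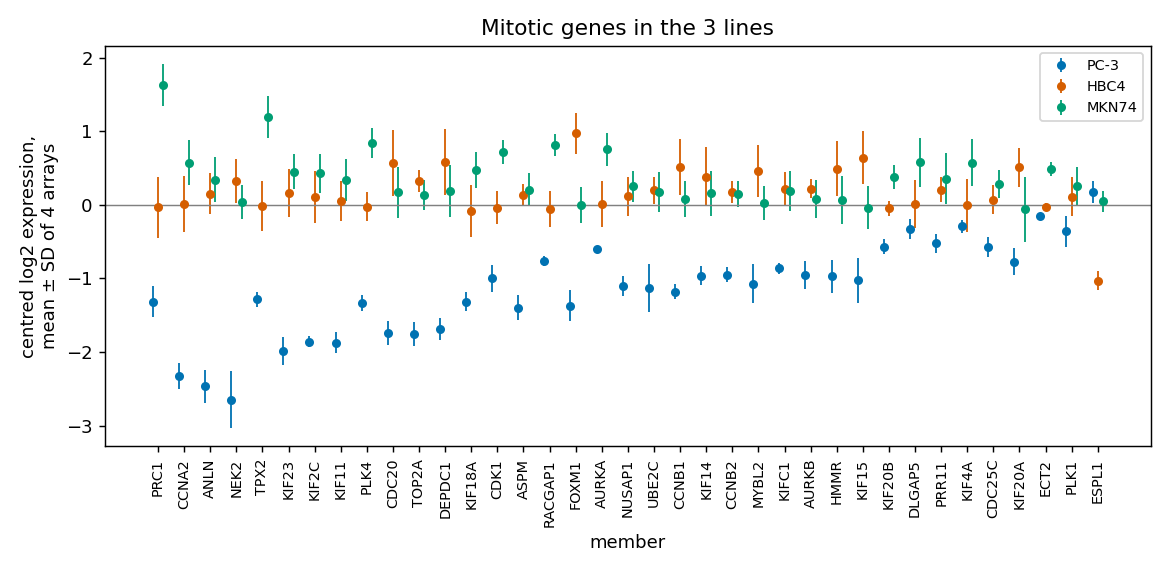
Centred log2 expression of each member (x axis, ordered by PC-3 minus MKN74) in the 3 lines, as mean ± SD of the 4 arrays of a line (y axis). PC-3 lies below MKN74 for 36 of the 37 members; ESPL1, the exception, also lies 1.20 above HBC4 in PC-3.

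Other genes of the pathway, from lists written with the member list, moved less uniformly against the controls. Of 5 further mitotic kinesins 2 rose, the kinetochore motor CENPE (0.46 ± 0.15, adjusted p = 0.00691) and KIF18B (0.30 ± 0.11, adjusted p = 0.0302), with a list median of 0.23, while KIF24 had 0.23 ± 0.06 without passing (adjusted p = 0.0582). Of 19 transport kinesins and their light chains none passed, and the median was 0.01. Those of smallest p were KIF13A (-0.18, adjusted p = 0.0881), KIF21A (-0.37, adjusted p = 0.232) and KIF16B (-0.15, adjusted p = 0.368). Of 8 genes of the chromosomal passenger complex and Aurora partners 2 rose, borealin CDCA8 (0.37 ± 0.04, adjusted p = 0.0183) and survivin BIRC5 (0.38 ± 0.20, adjusted p = 0.0369), and TACC3 had 0.27 without passing (adjusted p = 0.0703). Of 16 regulators of mitotic entry 3 rose: the phosphatase CDKN3 (0.48 ± 0.23, adjusted p = 0.0207) and the CDK subunits CKS1B (0.27 ± 0.07, adjusted p = 0.0252) and CKS2 (0.26 ± 0.13, adjusted p = 0.0457). In that list 12 of 16 were positive, with a median of 0.15 and a range from -0.37 to 0.48.

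Of 17 measured subunits and partners of the anaphase-promoting complex 2 rose, securin PTTG1 (0.44 ± 0.16, adjusted p = 0.0124) and the conjugating enzyme UBE2S (0.37 ± 0.27, adjusted p = 0.0467), and the list's median was 0.06, with ANAPC15 at 0.23 (adjusted p = 0.133). Of 16 measured genes of the general cytokinesis machinery the midbody protein CEP55 rose (0.40 ± 0.02, adjusted p = 0.0043), and the median was 0.01. DIAPH3 (0.24, adjusted p = 0.116) and MYH9 (0.12, adjusted p = 0.222) came next without passing. None of 17 DREAM, MuvB and E2F genes passed (median 0.03), E2F8 (0.25, adjusted p = 0.149), E2F1 (0.22, adjusted p = 0.179) and E2F7 (-0.20, adjusted p = 0.202) having the smallest p. None of 10 measured G1 cyclins and kinases passed (median 0.06), with CDK4 at 0.19 (adjusted p = 0.11), CCND1 at -0.21 (adjusted p = 0.179) and CCNG2 at -0.12 (adjusted p = 0.299). The proliferation marker MKI67 rose (0.28 ± 0.11, adjusted p = 0.03). No gene fell in any of these lists, and medians are to be read against 0.02 over all genes.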

How the data were processed

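Gene expression was measured on Affymetrix arrays. Per the submitters' processing notes the authors used RMA (no version named). The deposited log2 values have a median of 0 for each probe set, to within 5e-07, by centring that no label or header describes, and base 2 is taken from RMA's usual output. Centring removes levels and detection, so no filter on dim probes was possible, and the depth of an array has no meaning here beyond the number of arrays. Of 54675 probe sets 41091 named 1 gene in the platform annotation of 2016, 1801 with several genes were set aside, and 11721 have no gene in that table; 0 symbols changed against RefSeq. Probe sets were averaged per gene. Linear models covered all genes, using limma 3.58.1 under R 4.3.3 (lmFit, eBayes without a trend), with treatment and cell line as terms and 6 residual degrees of freedom, and p-values were adjusted by Benjamini-Hochberg. The line model held a G4 effect per line, with the arrays of a class in a line taken as replicates though their treatments differ. The cell line is the block, since replicate numbers stand for the same line. SD is that of 3 line differences, and intervals (95%) are those of the fit. Tables were joined with Python 3.11.15 and pandas 2.3.3. The members, lists and tests were chosen with earlier results of these data known. Full statistics cover the 10 members of smallest p in the G4 comparison, 4 in each other comparison and the 4 of largest p, and other values were chosen after they were seen. The fits of the G4 comparison, the (uuaccc)4 step, the G4 effect between lines and the differences between lines were first run on simulated data. The other comparisons and the alternative settings were not.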

Additional observations from a re-analysis of the deposited data

Results flagged for a closer look

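In 2 members the G4 arrays of PC-3 both lay below both control arrays while those of HBC4 and MKN74 both lay above theirs. ESPL1 had a G4 difference of -0.23 in PC-3 against 0.20 (HBC4) and 0.22 (MKN74), and the test of the difference between lines did not pass (adjusted p = 0.149 by limma). KIF18A had -0.19, 0.48 and 0.33 (adjusted p = 0.314). The median of the members in the step from the reagent alone to (uuaccc)4 was -0.075 in PC-3, against 0.20 in HBC4 and 0.24 in MKN74, and this difference was not tested, since each line has 1 array of either treatment.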

How the results depend on the processing

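The G4 count of 18 members was 20 with the probe set of largest line SD, 17 with the median of probe sets, 13 of 29 measured with only probe sets not marked _s_ or _x_, 16 after quantile normalization and 18 with robust empirical Bayes. Without the cell line as a block, that is without the pairing by line, it was 0, as was the count of 7 for AS1411 against the reagent. No member had a negative call under any alternative run. Leaving out 1 line or 1 array gave 1 to 22 members for the G4 comparison, 0 to 14 for AS1411 against the reagent and 28 to 37 for differences between lines. Over all genes the same fits called 4 to 163 higher, 0 to 36 higher and 9951 to 13713 in any direction, in that order. The AS1411 count was 3 with unmarked probe sets and 0 with only the arrays compared. For (uuaggg)4 against (uuaccc)4 it was 1 with the largest-SD probe set and 1 with unmarked probe sets, PRR11 in both cases, and 0 otherwise. Over all genes the G4 comparison called 190 higher and 326 lower, 114 and 213 with unmarked probe sets, 131 and 209 after quantile normalization, and 0 and 1 without the block. AS1411 called 21 and 82 genes, 10 and 56 with unmarked probe sets, and 0 and 12 with only the arrays compared. (uuaggg)4 called 0 and 40 genes, and 0 and 18 with only the arrays compared. Leaving out lines, arrays or marked probe sets, or using only the arrays compared, also leaves fewer samples or genes. The other alternatives, among them the fit without the block, kept all arrays and members. No cause of these changes was tested. With 1 array per line and treatment, signal over background cannot be read from centred values.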
